A study of Mus musculus with 16 samples.

Results

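Notch signalling was examined here through 10 genes. They were the receptors Notch1, Notch2 and Notch3, the ligands Jag1 and Dll4, the ubiquitin ligase gene Mib1, the DNA-binding partner gene Rbpj, and the target genes Hey1, Hey2 and Heyl. Members were all deposited peaks whose nearest transcription start belonged to one of these genes, 72 of 56149 peaks in 8 lists. All 72 were peaks of H3K27Ac (acetylated lysine 27 of histone H3, a mark of active promoters and enhancers), and 53959 of the 56149 peaks in all were of this mark.

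Chromatin came from adult cardiomyocytes (ACM) of 3-month-old mice, and both genotypes were bred on the same strain background. Des+/+ mice had intact desmin, the intermediate filament protein of muscle, and Des-/- mice had none. Both genotypes carried an αMHC-GFP transgene, a green reporter under a heart muscle myosin promoter. Mice were left unstressed (basal) or made to swim as exercise (swim), and chromatin of several mice was used for each genotype and condition. Antibodies to H3K27Ac and to lamin A/C, which lines the inside of the nuclear envelope, were each used once per genotype and condition. Each group is therefore 1 library, and no difference below has a replicate check or a p-value.

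Notch receptors sit in the membrane of the receiving cell, and ligands of the Jagged and Delta-like families sit on its neighbour. Ligand, once ubiquitinated by Mib1 and pulled into the sending cell, exposes the receptor to cleavage, and the freed intracellular part enters the nucleus. There it binds RBPJ on DNA, and genes of the Hey family, which encode transcriptional repressors, are among those switched on. In the heart the pathway is best known from valve formation, trabeculation and the lining of vessels, and Dll4 and Notch1 are prominent in arterial endothelium.

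The 10 genes had 23 H3K27Ac peaks in basal Des+/+, 21 in basal Des-/-, 16 in swim Des+/+ and 12 in swim Des-/-. The full lists shrank as well, from 15757 and 16638 peaks in the basal lists to 11157 and 10407 in the swim lists. All 10 genes had a peak in each basal list, 8 in swim Des+/+ and 7 in swim Des-/-. Of all genes with a peak in any H3K27Ac list, 86.3% had one in basal Des+/+, 91.1% in basal Des-/-, 65.6% in swim Des+/+ and 64.5% in swim Des-/-. Hey2 and Notch2 were without a peak in swim Des+/+. Hey2, Heyl and Notch3 were without one in swim Des-/-. Peak height is the authors' coverage signal, read depth where the peak is tallest, and the lists begin at 15 reads. At that floor counting error alone spans 8.40 to 24.7 reads (exact 95% Poisson interval, which, like the other intervals here, covers counting error only), so a missing peak can be a weak one. With a minimum of 20 reads the swim lists kept 5 Notch gene peaks in swim Des+/+ and 7 in swim Des-/-, the reverse of their order without it. Of all peaks, 45.7% in swim Des+/+ and 34.4% in swim Des-/- were below 20 reads. The cut thus took more from swim Des+/+ in the whole lists too.

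Libraries differed in ways that touch every comparison. Median input height (the same signal in chromatin sequenced without precipitation) was 3 reads in the lists of basal Des+/+, basal Des-/- and swim Des+/+, and 5 reads in that of swim Des-/-. Under the Notch gene peaks it reached 12 reads in swim Des-/- and at most 5 in the other lists. Median height was 20 reads in swim Des+/+ and 23 reads in each of the others.

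Overlapping peaks of the 4 H3K27Ac lists were merged into sites, which gave 25 sites for the Notch genes among 18277 in all. Each site is named by its gene and the distance of its highest summit from the gene's start in RefSeq, counted in the direction of transcription. Of the 25 sites, 9 (36.0%) were present in all 4 lists, 6 (24%) in 3 lists, 4 (16%) in 2 lists and 6 (24%) in 1 list. Over all sites the shares were 37.7%, 15.9%, 18.1% and 28.2% in the same order. No Notch gene site was present in the swim lists only. Over all sites such sites were few, with 2.53% in swim Des+/+ only, 1.96% in swim Des-/- only and 0.208% in just these 2 lists. The absence among 25 sites is therefore not a result about the Notch genes. Over all sites shared with the basal list, the median log2 height ratio of swim to basal was -0.44 in Des+/+ and -0.42 in Des-/-. A lower height after swimming is therefore not by itself a trait of the Notch genes. The heights of all 25 sites are shown in the plot of heights by site.

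**Figure D1:**
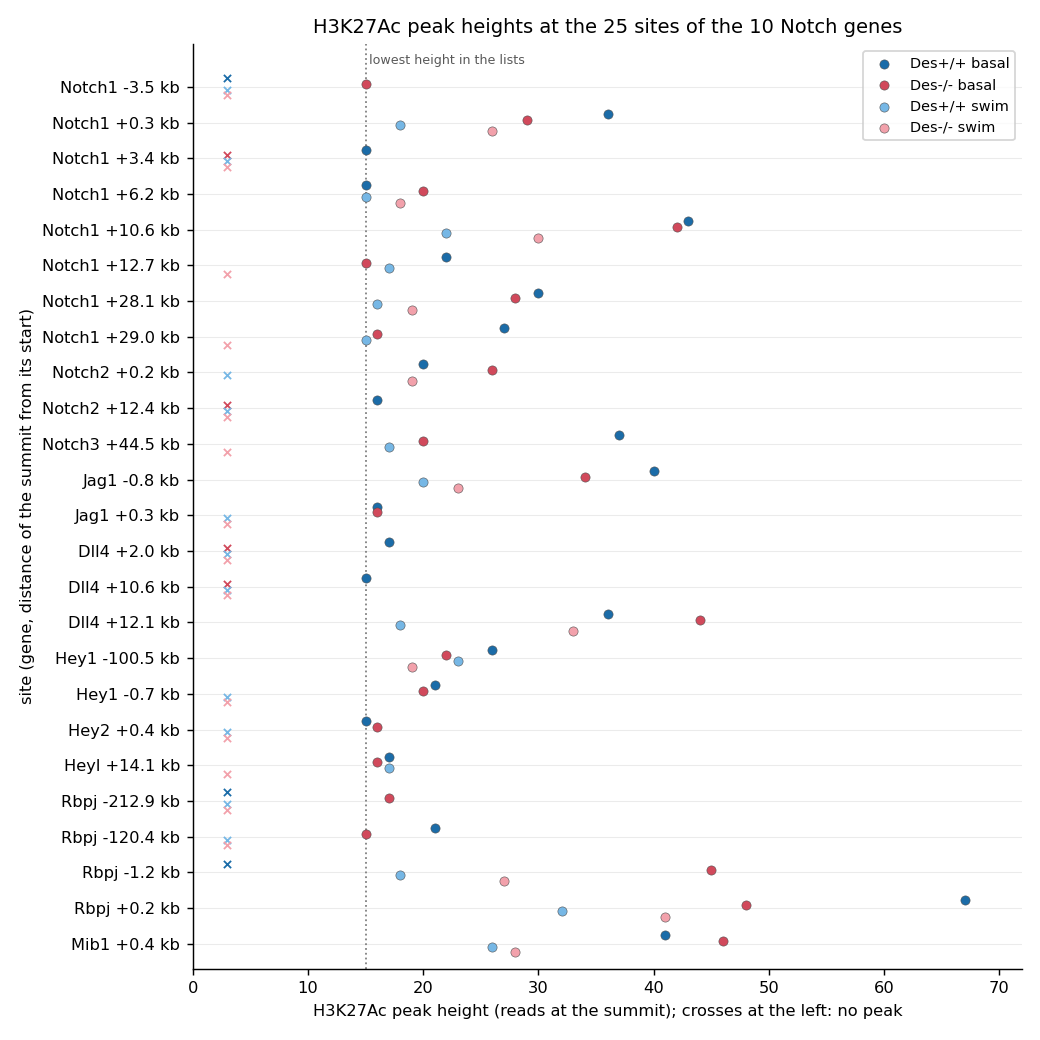
H3K27Ac peak height in reads (x axis) at the 25 sites of the 10 Notch genes (y axis), 1 point per list, with crosses for lists without a peak and a dotted line at 15 reads, the lowest height in the lists. Swim Des+/+ points lie left of the basal Des+/+ points at 8 of the 9 sites present in all lists. Swim Des-/- points lie left of the basal Des-/- points at all 9. These reads are not corrected for the lower heights of the whole swim lists. The Rbpj site at -1.2 kb has no peak in basal Des+/+ beside 45 reads in basal Des-/-.

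The DNA of the Hey2 promoter and of some of these sites is given first, since later values refer to it. All of it is reference sequence of build GRCm38.p6, written 5′ to 3′ on the strand of the gene. The Hey2 promoter stretch (chr10:30842754-30843033, minus strand) comes from RefSeq and runs from 250 bases before the start to 30 bases after it. This stretch does not overlap the H3K27Ac site of Hey2 (chr10:30842212-30842702). The other stretches are 300-base windows centred on summits. They are the strongest Notch1 site (chr2:26493108-26493407, minus strand, intron) and the intergenic Dll4 site in all lists (chr2:119337748-119338047, plus strand). The last 2 are the distal Hey1 site (chr3:8767434-8767733, minus strand, intergenic) and the Rbpj site without a peak in basal Des+/+ (chr5:53588989-53589288, plus strand, upstream of the main promoter). Capitals mark matches to the RBPJ motif, GTGGGAA, on either strand (TTCCCAC on the other).
Hey2 promoter: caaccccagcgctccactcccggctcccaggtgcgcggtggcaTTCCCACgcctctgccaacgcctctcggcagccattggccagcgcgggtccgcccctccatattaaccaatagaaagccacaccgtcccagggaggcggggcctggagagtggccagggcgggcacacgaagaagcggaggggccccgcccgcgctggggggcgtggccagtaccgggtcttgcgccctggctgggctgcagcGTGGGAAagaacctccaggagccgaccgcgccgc
Notch1 +10.6 kb: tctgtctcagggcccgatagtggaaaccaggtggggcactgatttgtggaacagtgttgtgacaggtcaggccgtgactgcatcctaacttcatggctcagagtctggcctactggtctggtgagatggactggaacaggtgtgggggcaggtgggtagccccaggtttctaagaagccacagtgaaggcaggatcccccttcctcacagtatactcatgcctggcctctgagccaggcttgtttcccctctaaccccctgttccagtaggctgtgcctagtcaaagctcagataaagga
Dll4 +12.1 kb: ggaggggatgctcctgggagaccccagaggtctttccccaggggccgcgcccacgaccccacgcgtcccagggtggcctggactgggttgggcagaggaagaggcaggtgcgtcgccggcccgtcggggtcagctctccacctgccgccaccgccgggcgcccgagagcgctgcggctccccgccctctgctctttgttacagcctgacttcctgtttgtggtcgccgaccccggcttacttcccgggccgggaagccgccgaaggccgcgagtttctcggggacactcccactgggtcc
Hey1 -100.5 kb: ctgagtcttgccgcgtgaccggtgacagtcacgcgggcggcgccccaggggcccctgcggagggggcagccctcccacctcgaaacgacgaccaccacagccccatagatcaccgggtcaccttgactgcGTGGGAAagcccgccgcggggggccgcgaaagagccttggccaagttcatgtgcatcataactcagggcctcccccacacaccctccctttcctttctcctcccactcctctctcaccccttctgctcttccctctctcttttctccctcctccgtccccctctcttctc
Rbpj -1.2 kb: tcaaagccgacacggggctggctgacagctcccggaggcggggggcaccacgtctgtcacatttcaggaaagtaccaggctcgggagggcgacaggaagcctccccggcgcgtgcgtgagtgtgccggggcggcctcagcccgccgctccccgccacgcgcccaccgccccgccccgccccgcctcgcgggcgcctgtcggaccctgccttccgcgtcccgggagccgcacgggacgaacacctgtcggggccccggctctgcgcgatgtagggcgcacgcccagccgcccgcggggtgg

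Promoter windows of 300 bases (250 before to 50 after the start) were on hand for 7 of the genes, 8 windows in all, since Rbpj has 2. The motif GTGGGAA was found on either strand in 1 of the 8 windows (12.5%) and in 6.38% of 32851 promoter windows of all genes. That window was the Hey2 promoter, which holds 2 matches, at -207 and -4 bases from the start. The E-box CACGTG, the kind of sequence that HEY and HES repressors bind, was in 0 of the 8 windows and in 7.15% of all windows. Both motifs were searched on both strands, and where they abut they can share the letters GTG. The Notch gene windows were rich in C and G, with a median GC content of 67.7% and a median of 25.5 CpG per window, beside 52.7% and 7 over all windows.

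In 300-base windows on the summits, the RBPJ motif was in 3 of 23 Notch gene peaks in basal Des+/+ (13.0%), 3 of 21 in basal Des-/- (14.3%), 5 of 16 in swim Des+/+ (31.2%) and 2 of 12 in swim Des-/- (16.7%). Over all H3K27Ac peaks the shares were 6.85%, 6.78%, 6.76% and 6.34% in the same order. The sites with a match in the window of their highest summit were Notch1 at +6.2 kb and +12.7 kb, Hey1 at -100.5 kb and Heyl at +14.1 kb, the last with 2 matches. A site can enter several lists, and that of Hey1 has 2 peaks in swim Des+/+, so the peaks are not independent. No intervals were computed for the shares of peaks, and no enrichment of the motif is read from them. Over their whole length, 8 of the 25 sites (32%) held the motif, beside 23.8% of all sites, whose median length was 1017 bases against 1100 for the Notch gene sites. These are letter matches only, and RBPJ binding was not measured.

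Notch1, the receptor gene with the widest acetylation of the set, took 25 of the 72 peaks. It had 8 peaks in basal Des+/+, 7 in basal Des-/-, 6 in swim Des+/+ and 4 in swim Des-/-, over 8 sites on chromosome 2. Of these sites 4 were present in all lists, at the promoter, at +6.2 kb, at +10.6 kb and at +28.1 kb. The peaks along the gene are drawn in the map of Notch1.

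**Figure D2:**
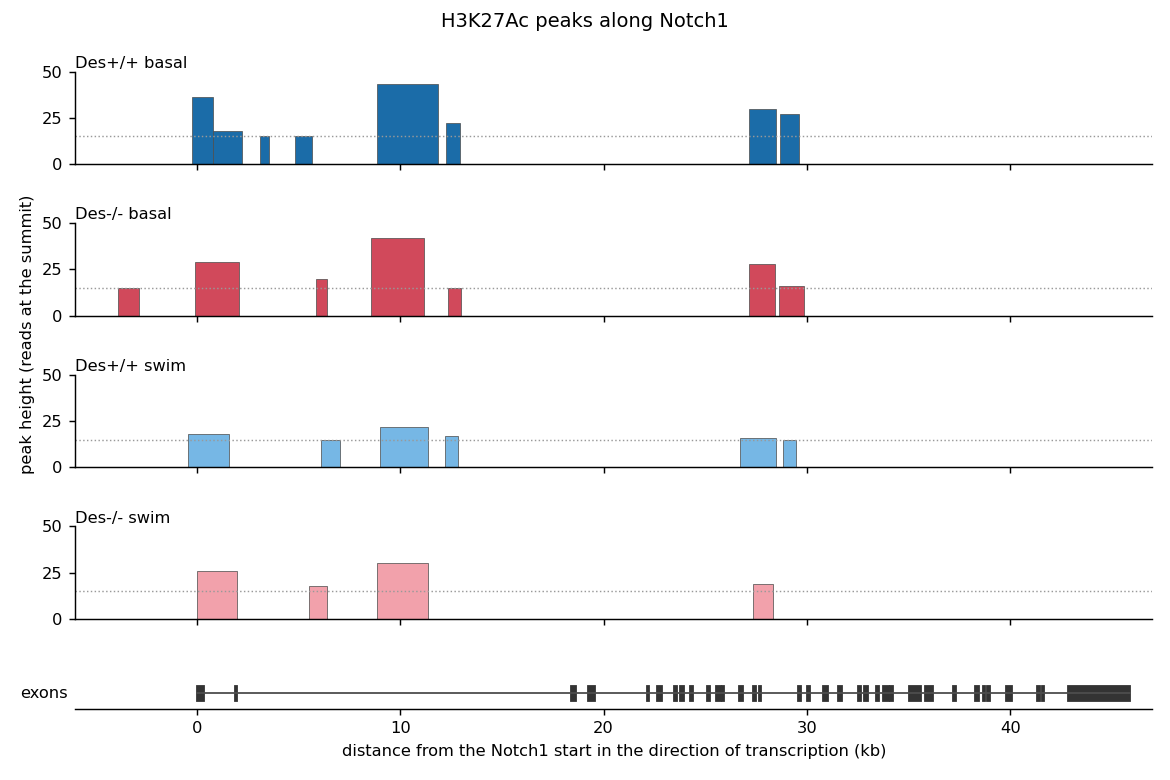
H3K27Ac peaks along Notch1 in the 4 lists, with distance from the start in kb on the x axis, bars as wide as each peak and as tall as its height in reads, and exons as dark blocks below. The strongest peak of every list lies in the long second intron near +10.6 kb, and swim Des-/- has 4 peaks where swim Des+/+ has 6.

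The Notch1 promoter site (chr2:26501623-26504286, first exon with its UTR and upstream sequence) had heights of 36 reads in basal Des+/+, 29 in basal Des-/-, 18 in swim Des+/+ and 26 in swim Des-/-. The strongest Notch1 site, at +10.6 kb in intron 2 (chr2:26491951-26495264), had 43, 42, 22 and 30 reads in the same order. At both sites heights in the basal lists were above those in the swim lists, and swim Des-/- was above swim Des+/+. The site at +28.1 kb over exons in the middle of the gene (chr2:26475317-26477119) had 30, 28, 16 and 19 reads and showed the same order. The site at +6.2 kb (chr2:26496779-26499011, intron 2 of the main transcript and an exon of a shorter one) had 15, 20, 15 and 18 reads, all near the floor. Its basal Des+/+ peak overlapped neither the basal Des-/- nor the swim Des+/+ peak directly, and is joined to them only through the swim Des-/- peak.

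A pair of further Notch1 sites had peaks in 3 lists and none in swim Des-/-. The site at +12.7 kb in intron 2 had 22 reads in basal Des+/+, 15 in basal Des-/- and 17 in swim Des+/+. The site at +29.0 kb over exons (chr2:26473942-26475180) had 27, 16 and 15 reads in those lists. The heights without a partner in swim Des-/- were thus 15 and 17 reads in swim Des+/+, at or just above the floor. The remaining Notch1 sites were each in 1 basal list at 15 reads, at +3.4 kb in Des+/+ (chr2:26500266-26500705) and at -3.5 kb in Des-/- (chr2:26506692-26507694).

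Notch2 and Notch3, the other receptors in the set, had 1 main site each. The Notch2 promoter (chr3:98013481-98014289, first exon with UTR) had 20 reads in basal Des+/+, 26 in basal Des-/-, no peak in swim Des+/+ and 19 in swim Des-/-. The swim Des-/- peak stood over 8 input reads, and its height plus 1 was 2.22 times the input plus 1, the lowest such enrichment among the Notch gene peaks of that list. Notch2 also had an intronic peak of 16 reads at +12.4 kb (chr3:98025592-98026140) in basal Des+/+ only. Notch3, a receptor best known from vascular smooth muscle, was acetylated at its 3′ end and not within 3 kb of its start in any list. That site, at +44.5 kb (chr17:32121584-32123033, last exon with UTR), had 37 reads in basal Des+/+, 20 in basal Des-/-, 17 in swim Des+/+ and no peak in swim Des-/-. Basal Des+/+ was the highest list by 17 reads.

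Jag1, a ligand of the Jagged family, had its main site just before the start at -0.8 kb (chr2:137116766-137117901, no protein-coding gene annotated under it). Heights were 40 reads in basal Des+/+, 34 in basal Des-/-, 20 in swim Des+/+ and 23 in swim Des-/-. The basal lists were again above the swim lists. Relative to the median of all shared sites, the log2 ratio of swim to basal was -0.56 in Des+/+ and -0.15 in Des-/-. The second Jag1 site at +0.3 kb over the first exon and its UTR (chr2:137115755-137116492) had 16 reads in both basal lists and no peak after swimming.

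Dll4, the Delta-like ligand of arterial endothelium, had its strongest site at +12.1 kb, beyond the 3′ end of the gene (chr2:119336692-119338598, intergenic). Heights were 36 reads in basal Des+/+, 44 in basal Des-/-, 18 in swim Des+/+ and 33 in swim Des-/-. In swim Des-/- the site was cut into 2 peaks, of 15 and 33 reads, which is why that list counts 2 Dll4 peaks beside 1 in swim Des+/+. Des-/- was the higher genotype in both conditions. The other Dll4 sites, at +2.0 kb (chr2:119327593-119328474, over exons and labelled a promoter by the authors, 17 reads) and +10.6 kb (chr2:119335841-119336478, 3′ UTR, 15 reads), were in basal Des+/+ only.

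Mib1, which encodes the ligase that makes ligands active, had 1 site at its promoter (chr18:10725507-10727289, first exon with UTR) in all 4 lists. Heights were 41 reads in basal Des+/+, 46 in basal Des-/-, 26 in swim Des+/+ and 28 in swim Des-/-. Within each condition the genotypes differed by 5 reads or fewer. With peaks assigned by gene body and the 3 kb before it, Mib1 had 3 peaks in each basal list and 2 in each swim list.

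Rbpj had the highest peak of the set. Its promoter site (chr5:53589505-53591863, first exon with UTR) had 67 reads in basal Des+/+, 48 in basal Des-/-, 32 in swim Des+/+ and 41 in swim Des-/-. The basal Des+/+ peak was higher than or equal to 95.6% of the peaks in its list. The input under the swim Des-/- peak, 12 reads, was the highest under any Notch gene peak, and the basal Des-/- peak stood over 1.

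The neighbouring Rbpj site at -1.2 kb (chr5:53588623-53589449, printed above) lies upstream of that promoter, in an intron of longer Rbpj transcripts. It had no peak in basal Des+/+, 45 reads in basal Des-/-, 18 in swim Des+/+ and 27 in swim Des-/-. At 45 reads it was the tallest Notch gene peak without a partner in any pair, and of all 3139 basal Des-/- peaks of 41 reads or more, 0.35% had no partner in basal Des+/+. The next basal Des+/+ peak, that of the promoter, began 433 bp further on, so with a partner allowed within 500 bp the site was no longer unique. A distal Rbpj peak at -212.9 kb (chr5:53376975-53377619, 17 reads) was in basal Des-/- only. A site at -120.4 kb, in an intron of the longer Rbpj transcripts (chr5:53469560-53470594), had 21 reads in basal Des+/+ and 15 in basal Des-/-, and no peak after swimming.

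Among the targets, Hey1 was acetylated in all 4 lists only at a distal intergenic site, -100.5 kb from its start (chr3:8766744-8768430). Heights there were 26 reads in basal Des+/+, 22 in basal Des-/-, 23 in swim Des+/+ and 19 in swim Des-/-, and Des+/+ was higher in both conditions. The site was assigned to Hey1 as the nearest start, and its link to the gene was not measured. The Hey1 promoter (chr3:8666345-8667984, first exon with UTR) had 21 and 20 reads in the basal lists of Des+/+ and Des-/- and no peak in either swim list.

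Hey2 and Heyl were acetylated close to the floor. The Hey2 promoter site (chr10:30842212-30842702, first exon with UTR), next to the RBPJ motifs printed above, had 15 reads in basal Des+/+, 16 in basal Des-/- and no peak in either swim list. Heyl had no peak within 3 kb of its start and 1 site at its 3′ end at +14.1 kb (chr4:123246923-123248022, exon with UTR). That site had 17 reads in basal Des+/+, 16 in basal Des-/- and 17 in swim Des+/+, and no peak in swim Des-/-.

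The share of peaks near a start was lower among the Notch gene peaks than among all peaks. Within 3 kb of a start lay 10 of 23 peaks in basal Des+/+ (43.5%, exact 95% binomial interval 23.2 to 65.5), 10 of 21 in basal Des-/- (47.6%, 25.7 to 70.2), 6 of 16 in swim Des+/+ (37.5%, 15.2 to 64.6) and 6 of 12 in swim Des-/- (50%, 21.1 to 78.9). Over all peaks the shares were 71.5%, 71.2%, 74.4% and 77.3%. The intervals of the first 3 lists lay below the share of all peaks and that of swim Des-/- did not. Peaks of 1 gene are not independent of each other, which these intervals leave out. Without Notch1, 8 of 15 (53.3%, 26.6 to 78.7), 8 of 14 (57.1%, 28.9 to 82.3), 5 of 10 (50%, 18.7 to 81.3) and 5 of 8 peaks (62.5%, 24.5 to 91.5) were near a start, and each interval held the share of all peaks. Without Notch1 the shares were thus still below those of all peaks in every list. With so few peaks the intervals cannot tell whether the lower share rests on Notch1. The split without Notch1 was chosen after seeing the data.

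Peaks that one genotype had and the other lacked were compared next, by an overlap of at least 1 bp, to ask what the loss of desmin changed at these genes. In the basal state 4 of 21 Des-/- peaks (19%, exact 95% binomial interval 5.45 to 41.9) had no partner in Des+/+, beside 19.7% of all basal Des-/- peaks. In the other direction 5 of 23 Des+/+ peaks (21.7%, 7.46 to 43.7) had none in Des-/-, beside 14.5% of all. After swimming 2 of 12 Des-/- peaks (16.7%, 2.09 to 48.4) had no partner in Des+/+, beside 22.2% of all, and 4 of 16 Des+/+ peaks (25.0%, 7.27 to 52.4) had none in Des-/-, beside 27% of all. All 4 background shares fell inside the intervals of the Notch genes, so at this depth no difference between these genes and the lists as a whole was detectable. With peaks under an enrichment of 4 left out, 3 of 5 swim Des-/- peaks (60.0%) and 9 of 11 swim Des+/+ peaks (81.8%) had no partner, beside 23.1% and 51.6% of all. These shares rest on few peaks and no intervals were computed, so no difference is read from them. Median enrichment over all peaks was 4.29 in swim Des-/- and 6 in swim Des+/+, so the cut fell harder on swim Des-/-.

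In the basal state, Des-/- but not Des+/+ had the peaks of Notch1 at -3.5 kb, the Notch1 peak at +6.2 kb, Rbpj at -1.2 kb and Rbpj at -212.9 kb. Des+/+ but not Des-/- had a pair of Notch1 peaks, at +3.4 kb and within the +6.2 kb site, the intronic Notch2 peak and the Dll4 peaks at +2.0 kb and +10.6 kb. After swimming, Notch2 at its promoter and the smaller of the Dll4 peaks were found in Des-/- only, while Notch1 at +12.7 kb and +29.0 kb, Notch3 and Heyl were found in Des+/+ only. Apart from the Rbpj peak of 45 reads these peaks were between 15 and 20 reads high.

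Swimming was compared with the basal state within each genotype in the same way. In Des+/+ 10 of 23 basal peaks (43.5%, 23.2 to 65.5) had no partner after swimming, beside 39% of all. In Des-/- 10 of 21 basal peaks (47.6%, 25.7 to 70.2) had none, beside 44.8% of all. Few peaks were found after swimming only. In Des+/+ these were 2 of 16 (12.5%, 1.55 to 38.3), beside 8.39% of all, and in Des-/- they were 0 of 12 (exact upper limit 26.5%), beside 6.28% of all. Lost in both genotypes were the Hey1 and Hey2 promoters, Jag1 at +0.3 kb and Rbpj at -120.4 kb, each of 15 to 21 reads in the basal lists. All of these shares are set against the backgrounds in the plot of peaks without a partner.

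**Figure D3:**
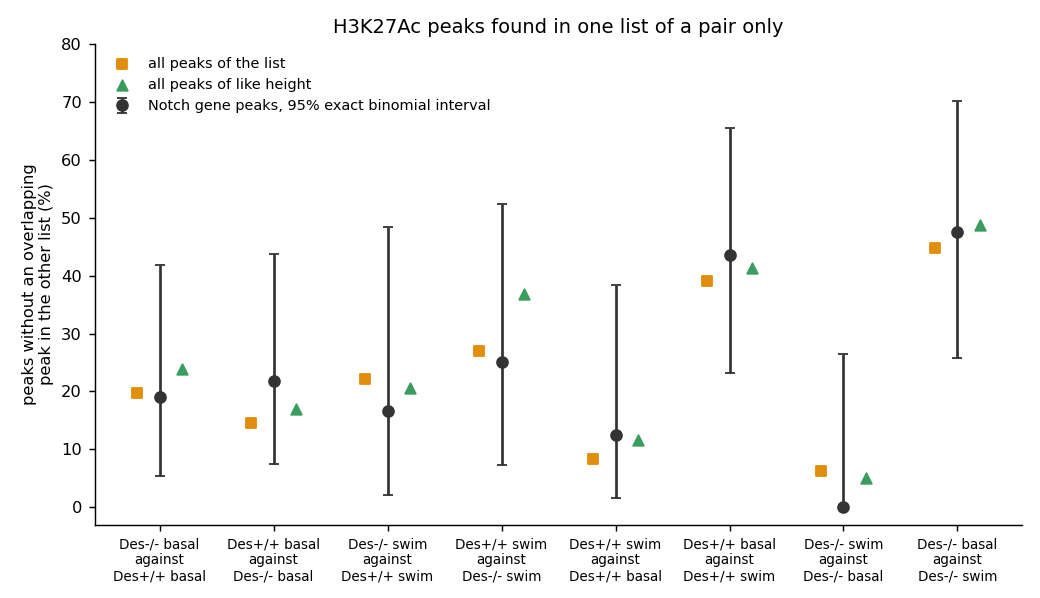
Percent of H3K27Ac peaks without an overlapping peak in the other list (y axis) for the 8 directions of comparison (x axis), with Notch gene peaks as circles and exact 95% binomial intervals, all peaks of the list as squares and all peaks within 1 read of the Notch gene peaks' heights as triangles. Every square and triangle lies inside the interval of the Notch gene peaks, for example 19.7% and 23.8% beside 19% for basal Des-/- against basal Des+/+.

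Heights at shared sites were compared as log2 ratios. Library depth is not in the lists, so the median log2 ratio of all shared sites was subtracted, and each value below is a relative difference. In the basal state the Notch genes had 18 sites in both genotypes. The median relative difference was -0.18 for Des-/- against Des+/+, and 13 of the 18 were below 0. Sites are merged peaks, and at Notch1 +6.2 kb (0.33, the highest value) the peaks of the genotypes do not overlap directly. Of the 18, 3 were over 1.5-fold lower in Des-/- and 0 over 1.5-fold higher, beside 3.03% lower and 2.9% higher of 12052 shared sites. The largest was Notch3, with 20 reads in Des-/- and 37 in Des+/+ and a relative difference of -0.97 (exact 95% interval -1.83 to -0.15, from counting error). Summed over the 18 sites the relative difference was -0.25 (-0.43 to -0.07). The Rbpj promoter, with 48 reads in Des-/- and 67 in Des+/+, differed by -0.56 (-1.13 to -0.01). Notch1 at +29.0 kb differed by -0.84 (-1.83 to 0.11) and Notch1 at +12.7 kb by -0.64 (-1.69 to 0.38), so the intervals of the Notch1 sites include 0.

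After swimming 10 sites were in both genotypes, and the direction was the other one. The median relative difference of Des-/- against Des+/+ was 0.16, with 8 of 10 above 0. Dll4 at +12.1 kb, with 33 reads in Des-/- and 18 in Des+/+, was the 1 site over 1.5-fold higher (0.72, interval -0.15 to 1.64), and 0 were lower by that much, beside 3.13% higher and 4.23% lower of 7099 shared sites. The sum over the 10 sites gave 0.19 (-0.08 to 0.46), an interval that includes 0. Input height at these sites was higher in swim Des-/-, with a median log2 input ratio of 0.76 at the Notch gene sites and 0.74 at all shared sites. After subtracting input from height the median relative difference was 0.00 with 4 of 10 above 0, so the direction after swimming was not kept.

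Within Des+/+ the Notch gene sites were lower after swimming than before, relative to the typical site. Over 13 sites the median relative difference of swim against basal was -0.47, with 9 of 13 below 0, and the sum gave -0.33 (-0.56 to -0.11). The peaks at Notch1 +6.2 kb (0.44) do not overlap directly here either. Over 1.5-fold lower were 2 sites, Notch3 (17 reads after swimming and 37 before, -0.68) and the Rbpj promoter (32 and 67 reads, -0.63), and 0 were higher by that much, beside 3.82% lower and 5.03% higher of 8766 shared sites. The Notch1 promoter (18 and 36 reads), Dll4 at +12.1 kb (18 and 36 reads) and Jag1 at -0.8 kb (20 and 40 reads) each differed by -0.56. Tall sites in general had lower values than low ones, and a low site that falls under 15 reads is not in the list and cannot be shared. Among all shared sites of 35 to 44 reads in basal Des+/+ the median was -0.17 and the 10th percentile -0.56, while the 6 Notch gene sites of that height had a median of -0.56.

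In Des-/- the same comparison gave a median relative difference of -0.04 over 11 sites, 4 above 0 and 6 below, and a sum of -0.03 (-0.25 to 0.20). No site passed 1.5-fold in either direction, beside 4.48% higher and 2.48% lower of 8440 shared sites. The Notch1 promoter had 26 reads after swimming and 29 before (0.26), and Dll4 at +12.1 kb had 33 and 44 reads (0.00). These 4 comparisons share libraries, each list entering 2 of them, and are not independent. The relative differences are drawn in the plot of relative heights.

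**Figure D4:**
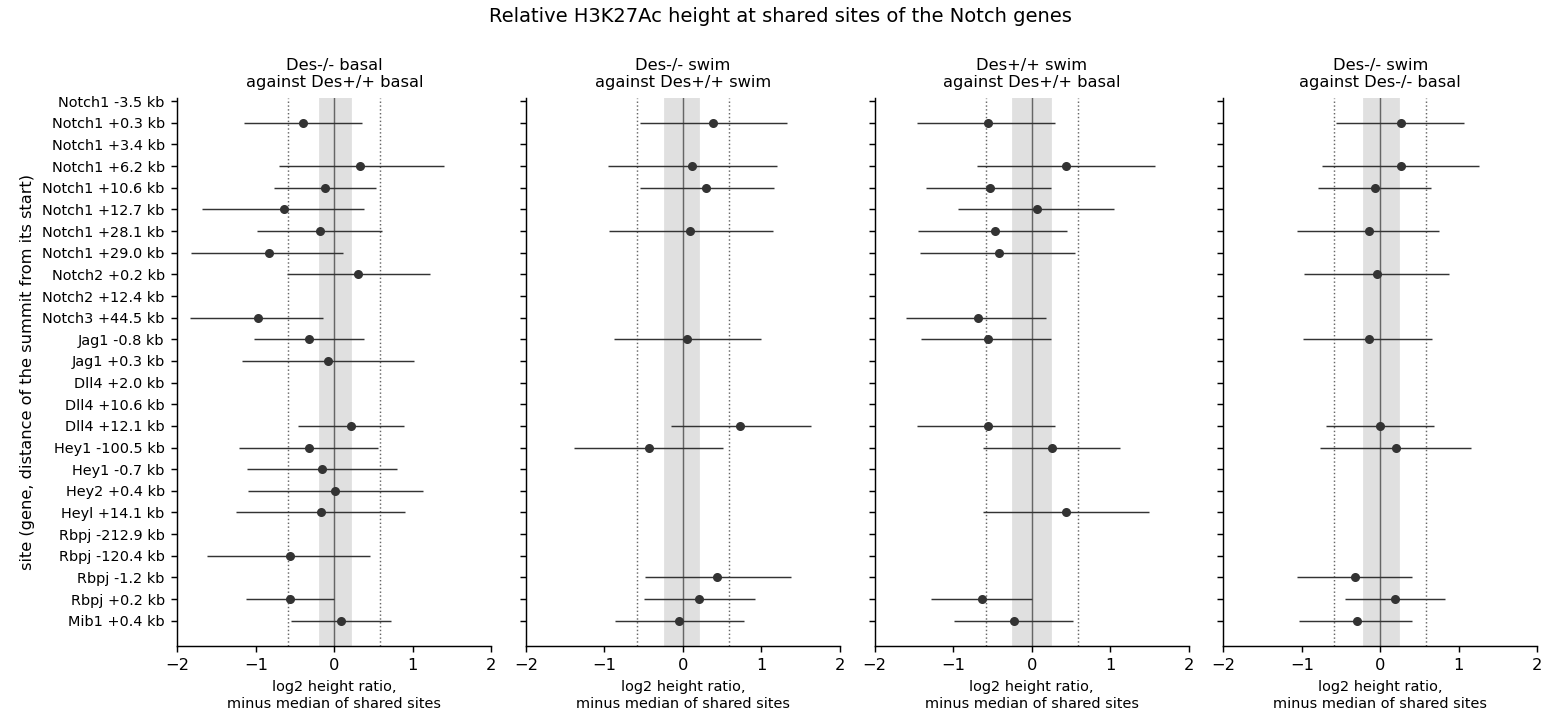
Relative log2 height ratio at sites shared by 2 lists (x axis, ratio minus the median of all shared sites) for each Notch gene site (y axis) in 4 comparisons, with exact 95% intervals for counting error, the interquartile range of all shared sites in grey and dotted lines at 1.5-fold. The Notch3 interval in the basal genotype comparison ends below 0 (-0.15), as does that of the Rbpj promoter (-0.01), and all other intervals include 0.

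Lamin A/C lists were short, with 188 peaks in basal Des+/+, 831 in basal Des-/-, 635 in swim Des+/+ and 536 in swim Des-/-, and the 10 Notch genes had 0 peaks in each. Of 11472 genes with a peak in any of the 8 lists, 169, 420, 408 and 295 had a lamin A/C peak, in the same order. With so few, 0 of 10 genes is not a result about the Notch genes. A count of 0 allows up to about 3 peaks, an approximate limit. That is 1.60% of the basal Des+/+ list, 0.361% of basal Des-/-, 0.472% of swim Des+/+ and 0.560% of swim Des-/-. The nearest lamin A/C peak to any of the gene bodies was 434 kb from Rbpj, in basal Des-/-. Contact of these genes with the lamina was therefore not detectable in these lists, which does not show that there is none.

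Of 43 other genes of the pathway (receptors, ligands, targets, coactivators, corepressors, proteases, glycosyltransferases, ubiquitin ligases and endocytic regulators), 31 had an H3K27Ac peak in basal Des+/+, 34 in basal Des-/-, 24 in swim Des+/+ and 26 in swim Des-/-. Of the 43 genes, 35 had a peak in any of these lists. Of all genes with a peak in any H3K27Ac list, 86.3%, 91.1%, 65.6% and 64.5% had one in the same order. The pathway genes had 69, 69, 46 and 49 peaks in that order, and 22 genes had one in all 4 lists. After swimming 4 genes had a peak in Des-/- only and 2 in Des+/+ only, and in the basal state 4 and 1. The like share over all genes was not computed, so no difference is read from these counts. Both swim counts were below the basal counts, as in the whole lists, and swim Des-/- had 3 peaks more than swim Des+/+, where the 10 Notch genes had 4 fewer.

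The cells' label was checked against marker genes. All 15 cardiomyocyte markers had a peak in each basal list, 14 in swim Des+/+ and 9 in swim Des-/-, with 65, 51, 45 and 21 peaks in the order basal Des+/+, basal Des-/-, swim Des+/+ and swim Des-/-. Of 15 endothelial markers 14, 14, 13 and 12 had one, with 47, 41, 33 and 41 peaks, so markers of endothelium were acetylated in these libraries too. Their summed height was 0.212% to 0.355% of that of all peaks, beside 0.150% to 0.360% for the cardiomyocyte markers and 0.103% to 0.134% for the Notch genes. Vwf was without a peak in every list. Mural cell markers had a peak in 1 or 2 of 10 genes, fibroblast markers in 0 to 3 of 10 and leukocyte markers in 0 or 1 of 10. In bulk chromatin a change in the share of a cell type and a change within cells cannot be told apart, and the part of endothelial cells in the Notch gene peaks was not tested.

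Within these pathway and marker lists, the largest differences in peaks between genotypes after swimming included those of Actn2 (0 peaks in Des-/- and 4 in Des+/+), Ryr2 (2 and 6), Nkx2-5 (1 and 4) and Atp2a2 (7 and 9, level in difference with Myl2 and Ttn) among the cardiomyocyte markers, and Sox18 (5 and 1) and Kdr (6 and 3) among the endothelial ones. These genes were picked for their difference. Of all 15 cardiomyocyte markers, 13 had fewer peaks in swim Des-/- than in swim Des+/+, 2 as many and 0 more. Of the 15 endothelial markers 6 had more, 3 fewer and 6 as many. The like shares over all genes were not computed, so no difference between the marker lists is read from these counts. The swim Des-/- list was also shorter as a whole than that of swim Des+/+ (10407 against 11157 peaks). Its median input was higher (5 against 3 reads). The counts of the lists are set side by side in the plot of peaks by gene list.

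**Figure D5:**
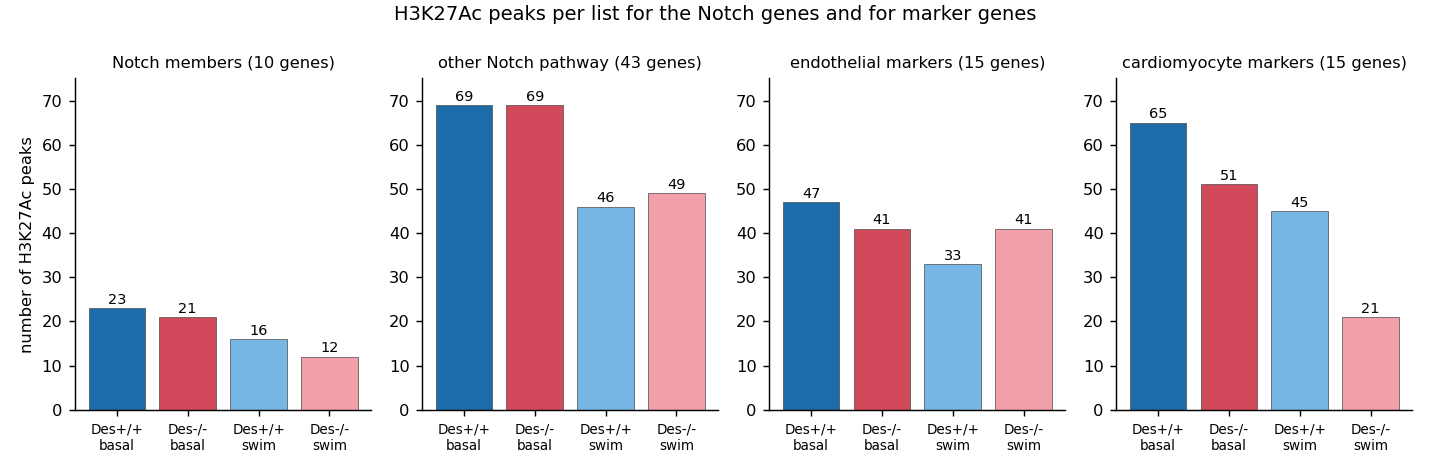
Number of H3K27Ac peaks (y axis) in each of the 4 lists (bars, from 0) for the 10 Notch genes, 43 other pathway genes, 15 endothelial markers and 15 cardiomyocyte markers. From swim Des+/+ to swim Des-/- the count goes from 16 to 12 for the Notch genes, 46 to 49 for the other pathway genes, 33 to 41 for endothelial markers and 45 to 21 for cardiomyocyte markers. The whole list goes from 11157 to 10407 peaks.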

How the data were processed

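The authors aligned single-end reads to GRCm38 (mm10) with Bowtie2 2.4.4, processed them with SAMtools 1.13, called peaks per library against its input with in-house scripts and annotated them with ChIPseeker 1.36.0. Whether duplicates were removed, reads extended or input scaled is not given in the sources used here. The deposited peak height and input height are coverage signals in whole reads, the deposited fold is the ratio of height plus 1 to input plus 1, the deposited distance score only set which peaks were within 3 kb of a start, and the deposited p-value and false discovery rate were not used. Exact depth per sample is not in the lists.

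The series has 16 samples, 8 of them inputs, which enter only through the input height. From the 4 H3K27Ac and 4 lamin A/C lists, peaks were taken by deposited gene symbol. Sites were merged peaks, partners overlapped by at least 1 bp, and height ratios were centred on the median of shared sites. Every member was named, and other genes as counts with the 6 of largest difference between genotypes after swim. The members and lists were chosen with earlier results of these data known. Functions were checked on simulated lists with known partners and ratios (Python 3.11.15, pandas 2.3.3, scipy 1.17.1, pysam 0.24.0). Alternatives were gene assignment, minimum height or enrichment, list length, overlap, promoter peaks and input subtraction. Reference sequences were of GRCm38.p6, the build of the files, and 1 sequence window is not reported here.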

Additional observations from a re-analysis of the deposited data

Results flagged for a closer look

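A few results moved in opposite directions with swimming in the 2 genotypes. They were picked for their opposite signs, and the share of all shared sites with opposite signs was not computed. With 1 library per group, none of these differences was tested. The number of Dll4 peaks went from 3 to 1 in Des+/+ and from 1 to 2 in Des-/-, a difference of 3 peaks between the genotypes, where the second swim Des-/- peak is part of the same site. The opposite movement was lost with a minimum height of 20 reads (1 to 0 and 1 to 1) and with peaks assigned by gene body (3 to 0 and 1 to 0). The number of Rbpj peaks went from 2 to 3 in Des+/+ and from 4 to 2 in Des-/-, a difference of -3, where 2 of the 3 swim Des+/+ peaks are part of the same site. With the minimum height of 20 reads the counts were 2 to 1 and 2 to 2, so the difference turned. The relative log2 height of the Notch1 promoter site was -0.56 after swimming in Des+/+ and 0.26 in Des-/-, a difference of 0.82. At the Rbpj promoter site the values were -0.63 and 0.19, also a difference of 0.82. These are values relative to all shared sites, and heights were lower after swimming in both genotypes, 18 against 36 reads and 26 against 29 at Notch1, and 32 against 67 and 41 against 48 at Rbpj. Input under the Rbpj site was 12 reads in swim Des-/- and 1 in basal Des-/-, and its part in the difference was not tested. The counting intervals of each Notch1 and Rbpj value included 0.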

How the results depend on the processing

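Cuts on height, enrichment or list length moved the counts. With a minimum height of 20 reads the Notch genes had 14 peaks in basal Des+/+ and 13 in basal Des-/-. They had 5 in swim Des+/+ and 7 in swim Des-/-, so the order after swimming turned. Of all peaks, 45.7% in swim Des+/+ and 34.4% in swim Des-/- were below that height. With this minimum 5 genes had a peak in swim Des+/+. With lists of equal length the basal counts were 14 and 13. With an enrichment of at least 4, swim Des-/- kept 5 peaks at 4 genes, and with promoter peaks only, 4 genes had one in swim Des+/+.

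Peaks without a partner depended on the same choices. The shares below rest on few peaks, and no intervals were computed for them. With the enrichment minimum the share was 60.0% (3 of 5) for swim Des-/- against swim Des+/+, 81.8% (9 of 11) in the other direction and 80% (16 of 20) for basal Des-/- against swim Des-/-, with 23.1%, 51.6% and 65.7% over all peaks. With equal list length it was 21.4% (3 of 14) for basal Des+/+ against swim Des+/+, beside 24.0% of all peaks. For basal Des-/- against swim Des-/- it was 15.4% (2 of 13), beside 24.4%. Peaks above the larger median height were also set against the full list, and few were left. Between genotypes the share was 0 of 10 for basal Des+/+, 0 of 6 for swim Des-/- and 0 of 2 for swim Des+/+. Over all peaks it was 0.823%, 4.38% and 3.28%. Within genotypes it was 0 of 2 for swim Des+/+, 0 of 10 for basal Des+/+ and 0 of 9 for basal Des-/-. Over all peaks it was 0.465%, 10.0% and 15.4%. The Rbpj peak was the exception for basal Des-/- against basal Des+/+ (1 of 9, beside 1.72%). The share was also 0 for swim Des+/+ against swim Des-/- with promoter peaks only (0 of 6, beside 20.2%). For swim Des+/+ against basal Des+/+ it was 0 with a minimum height of 20 (0 of 5, beside 4.89%). With a partner within 500 bp it was 0 of 16 there, beside 6.37%.

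Median relative heights kept their sign under the 20 alternatives, except that the value between genotypes after swimming became 0.00 with input subtracted. Lamin A/C counts were also 0 in all 4 lists with peaks assigned by gene body. With the 6-letter core of the motif, chosen after seeing the data, 3 of 8 promoter windows (37.5%) matched, beside 25.6% of all. No paired analysis was possible because each group is 1 library, and none could be left out.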
